A study of Mus musculus with 15 samples.

Results

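The comparison described here set dural macrophages of 21-day-old mice (P21) against dural macrophages of 3-day-old mice (P3), and it covered all genes of the deposited count table. Its members were the 3 libraries labelled P21 and the 3 libraries labelled P3, 6 of the 15 libraries of the series. At each age, CD206-positive cells were sorted from dura mater, and the mice were of strain C57BL/6J and genotype Cx3cr1GFP/wt, in which a GFP reporter sits in 1 of the alleles of Cx3cr1, and no treatment was given. All 6 libraries carried the same batch label, which names a project. The other 9 libraries came from the same tissue, strain and genotype at P56, P10 and E14.5. They helped to estimate the spread between libraries, and the P56 and P10 libraries also served a side comparison. The submitters' design text gives between 3 and 5 individual mice per age, and the labels do not tie a library to a mouse, so p-values measure the spread between libraries.

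The dura is the outer membrane around the brain, and its resident macrophages are a population of border-associated macrophages. CD206, the mannose receptor by which the cells were sorted, is encoded by Mrc1. Macrophages take up debris, present peptides on MHC class II to helper T cells, produce complement components and chemokines, and can divide locally in tissue. In the first weeks of life, resident macrophages of many tissues slow their division and take on the gene expression of their adult tissue.

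Between P21 and P3, 6 of 13 tested genes of MHC class II presentation, 8 of 16 complement genes, 9 of 17 glucocorticoid response genes and 18 of 25 immediate early genes rose at P21. In the other direction, 7 of 26 DNA replication genes and 9 of 25 mitosis genes fell at P21. Leaving out 1 library lowered the counts of glucocorticoid response and immediate early genes to as few as 5 and 12. It lowered those of DNA replication and mitosis genes to as few as 2 and 5, while 15 mitosis genes fell without P21 replicate 3. The MHC class II and complement counts did not drop. Of 14683 tested genes, 534 (3.64%) were called at an adjusted p under 0.05 in edgeR's quasi-likelihood test. Of these, 396 genes (2.70% of those tested) were higher at P21 and 138 (0.940%) were lower. At least 2-fold apart were 272 genes that were higher (1.85%) and 101 that were lower (0.688%). The 3 libraries of one age lay wholly above or below those of the other for 3213 genes (21.9%), with P21 above for 1563 (10.6%) and P21 below for 1650 (11.2%). Log2 changes are given as P21 over P3 with the standard error of the fit, and levels as CPM (counts scaled to a common library size, with TMM factors). In bulk libraries, fewer cells of a type and less RNA per cell cannot be told apart, which holds for every level below.

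**Figure D1:**
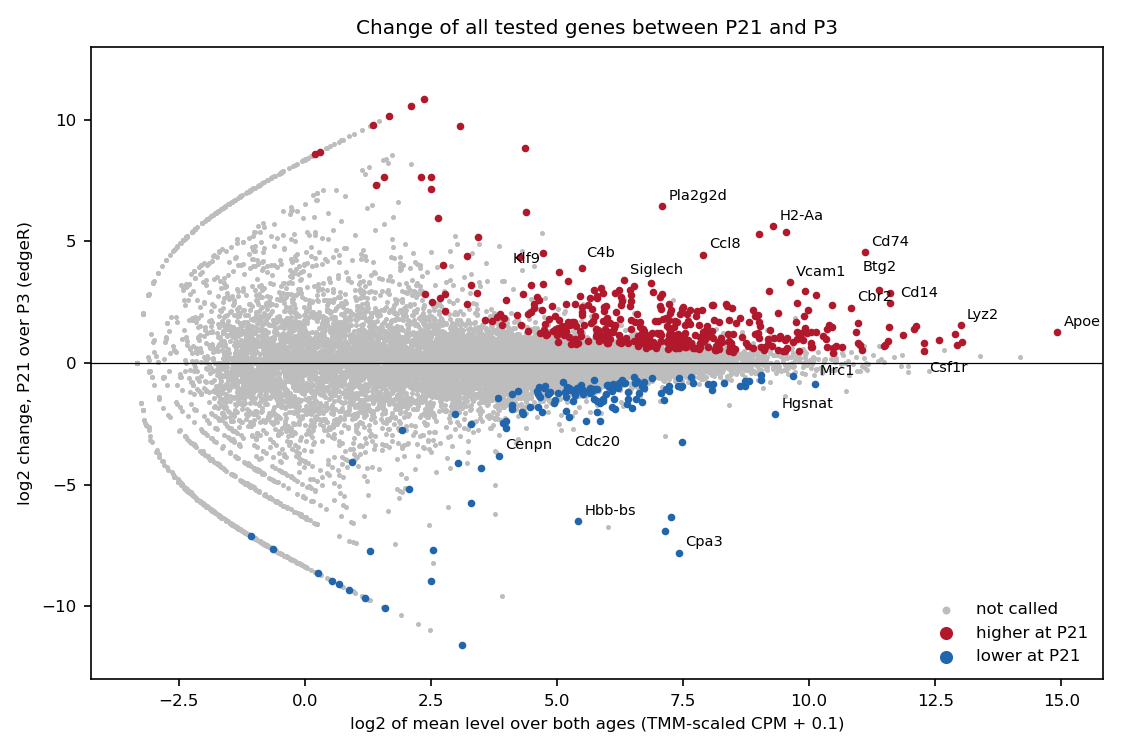
Each point is 1 of the 14683 tested genes, placed by its mean level over both ages (log2 of TMM-scaled CPM, x axis) and its log2 change of P21 over P3 (y axis), with genes called higher at P21 in red, lower at P21 in blue and not called in grey. The 396 red points extend to high levels, where Cd74 and Apoe lie, while most of the 138 blue points lie at lower levels, with Hgsnat as an exception.

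Total counts ranged from 20997857 to 22678913 at P21 and from 17550170 to 30281520 at P3. Correlations of log2 CPM ranged from 0.902 to 0.944 among the P21 libraries and from 0.949 to 0.965 among the P3 libraries. Between the ages they ranged from 0.877 to 0.946, and P21 replicate 3 correlated more highly with P3 replicate 1 (0.946) than with either other P21 library (0.944 and 0.911), so the libraries did not separate by age on this measure. P21 replicate 2 stood apart from the other P21 libraries. That library had 11254 genes with at least 10 counts, against 12236 and 13058 in P21 replicates 1 and 3. Without P21 replicate 2, 281 genes were higher and 67 lower. Without P21 replicate 1 the counts were 271 and 84, and without P21 replicate 3 they were 385 and 263. Leaving out P3 replicates 1, 2 and 3 in turn gave 215, 230 and 190 genes higher and 52, 54 and 51 lower. The 50 most abundant genes took 25.4% to 27.0% of counts at P21 and 19.4% to 19.99% at P3. The TMM factors followed this, with 0.902 to 0.944 at P21 and 1.10 to 1.12 at P3. With library totals alone, a scaling chosen after seeing the data, the median of all tested genes moved to -0.28, against -0.02 with TMM, and 232 genes were higher and 453 lower. Under that scaling 33.9% of the calls were higher and 66.1% lower, beside 74.2% and 25.8% with TMM. Of the 534 genes, 370 kept their call. That 0 of them changed sign says little, because the shift of the median was small beside most called changes.

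Of 5 genes used to identify the sorted macrophages (Mrc1, Csf1r, Cx3cr1, Adgre1 and Ptprc), 1 was called between the ages. Mrc1 had 2192, 2658 and 3469 CPM at P21 and 2306, 1842 and 2398 CPM at P3, and these ranges overlapped (log2 change 0.35 ± 0.26, adjusted p = 0.573). Csf1r, the receptor for the growth factor on which macrophages depend, had 5487, 5615 and 6481 CPM at P21 and 4522, 4114 and 4063 CPM at P3 (log2 change 0.47 ± 0.26, adjusted p = 0.385). Its P21 libraries all lay above the P3 libraries, yet the difference did not pass the test. Cx3cr1, the fractalkine receptor gene that carries the GFP allele, had 431, 472 and 512 CPM at P21 and 501, 442 and 310.3 CPM at P3 with overlapping libraries (log2 change 0.17 ± 0.20, adjusted p = 0.751). Adgre1, which encodes F4/80, had 2065, 2129 and 2081 CPM at P21 and 1547, 1568 and 1520.2 CPM at P3 (log2 change 0.44 ± 0.14, adjusted p = 0.112). Its libraries did not overlap, and the difference did not pass. Ptprc, the CD45 gene, had 248, 226 and 278 CPM at P21 and 167, 165 and 153 CPM at P3 and passed (log2 change 0.63 ± 0.15, adjusted p = 0.0325). That call was lost in 5 of the 6 fits that left out a library, all except the one without P21 replicate 2, with adjusted p between 0.0472 and 0.141.

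Beside these, several macrophage genes rose at P21. Of 18 tested core macrophage genes 7 rose and 0 fell, with a median log2 change of 0.58, beside -0.02 for all tested genes. Cd14, the co-receptor for bacterial lipopolysaccharide, had 6977, 4379 and 5061 CPM at P21 and 878, 784 and 586 CPM at P3, a 7.30-fold difference (log2 change 2.87 ± 0.32, adjusted p = 1.30e-04). Lyz2, the lysozyme gene and among the most abundant of the macrophage genes, had 11987, 13740.2 and 11026 CPM at P21 and 4881, 3579 and 4004 CPM at P3 (log2 change 1.56 ± 0.16, adjusted p = 7.68e-05). For both genes the lowest P21 library was more than 2-fold above the highest P3 library. Ctss, the cathepsin that trims the MHC class II invariant chain, had 2814, 2997 and 2454 CPM at P21 and 1091, 1205 and 1151 CPM at P3 (log2 change 1.26 ± 0.16, adjusted p = 4.17e-04). In the list of macrophage transcription factors, 5 of 26 rose and 0 fell (median 0.20). Cebpb, a factor of inflammatory gene activation, was the called member with the smallest p, with 1883, 1394 and 1122 CPM at P21 and 291, 294 and 203 CPM at P3 (log2 change 2.48 ± 0.30, adjusted p = 2.83e-04). The lineage factor gene Spi1 had a log2 change of 0.079 and was not called. That list had 2 called members without P21 replicate 1, P3 replicate 1 or P3 replicate 3, and 3 without P21 replicate 2. Its median was -0.07 with library totals alone.

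Of 24 tested border macrophage genes, 10 rose and 0 fell (median 0.70). Cbr2, a carbonyl reductase, had 3055, 2764 and 3235 CPM at P21 and 703, 539 and 626 CPM at P3, 4.85-fold apart (log2 change 2.28 ± 0.12, adjusted p = 1.73e-07). The galactose-type lectin gene Mgl2 had 893, 1027 and 1202 CPM at P21 and 128, 117 and 153 CPM at P3, 7.83-fold apart (log2 change 2.97 ± 0.15, adjusted p = 1.73e-07). Its neighbour in function Clec10a had 823, 859.5 and 641 CPM at P21 and 187, 179.8 and 146 CPM at P3 (log2 change 2.18 ± 0.17, adjusted p = 5.93e-06). In all 3 genes every P21 library stood far above every P3 library, and reads shared between Mgl2 and Clec10a could blur how the difference divides between them. Fcrls, an Fc receptor-like scavenger receptor, had 3479, 3544 and 3695 CPM at P21 and 2013, 2283 and 2224 CPM at P3 (log2 change 0.72 ± 0.10, adjusted p = 8.44e-04). Lyve1, Pf4, F13a1, Stab1 and Dab2, also used to mark these cells, were not called, with log2 changes of -0.35, -0.12, 0.25, -0.15 and -0.36 in that order. The count of 10 fell to 6 without P21 replicate 1 and to 5 without P3 replicate 2 or P3 replicate 3. The lectin gene Cd209a was decided by few libraries, with 22.5, 15.4 and 113 CPM at P21 and 2.65, 0.0517 and 3.72 CPM at P3 (log2 change 4.53 ± 1.11, adjusted p = 0.0378). Its call was lost without P21 replicate 3, where it was highest (0.113), and without P3 replicates 1, 2 and 3 (0.130, 0.0878 and 0.0898). The Cd209 genes form a family of near copies, so this value is uncertain.

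**Figure D2:**
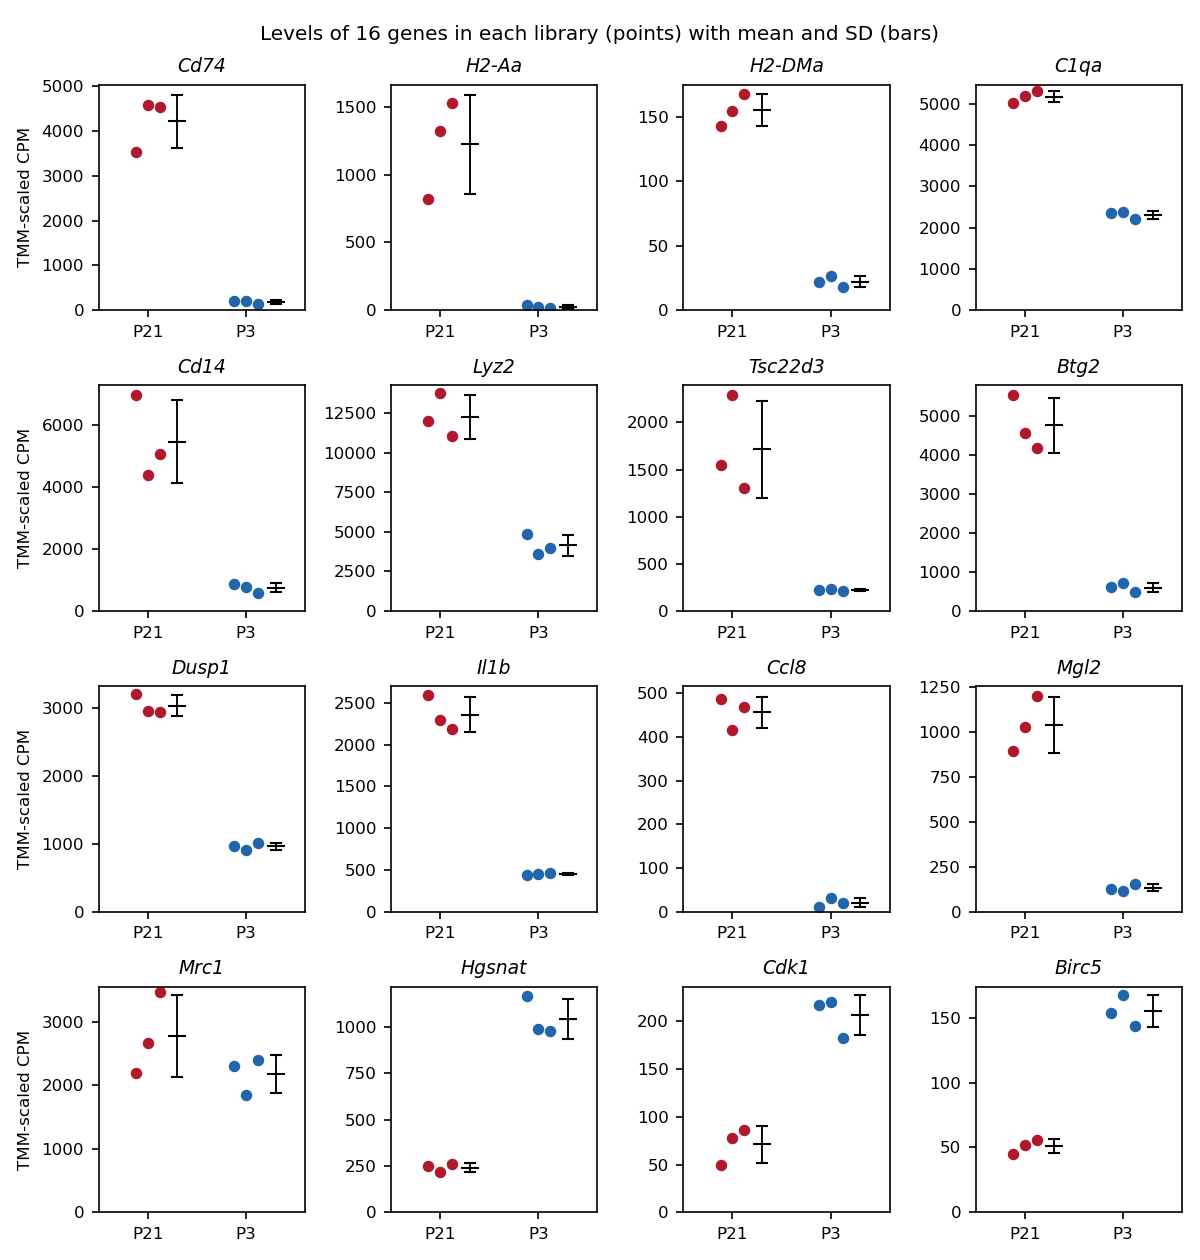
Each panel shows 1 gene, with the TMM-scaled CPM of each library as a point (y axis, linear from 0), P21 libraries in red on the left, P3 libraries in blue on the right, and the mean with its SD beside each group (n = 3). The P21 and P3 points are apart in every panel but that of Mrc1, with P21 above P3 in 12 panels and below in those of Hgsnat, Cdk1 and Birc5.

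The genes of MHC class II presentation had the highest median change of the lists described here. Of 13 tested members 6 rose and 0 fell, with a median log2 change of 2.74, and the count was 6 or 7 in each fit that left out a library. The list was not uniform, with 11 positive log2 changes and a lowest value of -1.94. All P21 libraries lay above P3 for 6 members and below P3 for 1, beside 10.6% and 11.2% of all tested genes. The alpha chain H2-Aa had 821, 1322 and 1525 CPM at P21 and 39.5, 22.02 and 12.3 CPM at P3, 49.5-fold apart (log2 change 5.63 ± 0.75, adjusted p = 6.36e-04). The beta chain of the same molecule, H2-Ab1, had 1146, 1414 and 1830.4 CPM at P21 and 51.5, 42.6 and 11.4 CPM at P3 (log2 change 5.38 ± 0.67, adjusted p = 3.67e-04). H2-Eb1, the beta chain of I-E, had 668, 1005 and 1324 CPM at P21 and 42.8, 27.9 and 4.52 CPM at P3 (log2 change 5.31 ± 0.87, adjusted p = 0.00334). At P21 these chain genes were lowest in P21 replicate 1, and at P3 they were lowest in P3 replicate 3, and the lowest P21 library was more than 15-fold above the highest P3 library. Cd74, the invariant chain that escorts class II molecules, was the most abundant, with 3541, 4575 and 4541 CPM at P21 and 211, 200.4 and 129 CPM at P3, 23.4-fold apart (log2 change 4.55 ± 0.28, adjusted p = 5.48e-07). H2-DMa, a chain of the peptide-loading factor, had 143, 155 and 168 CPM at P21 and 22.1, 26.4 and 17.8 CPM at P3 (log2 change 2.81 ± 0.20, adjusted p = 1.82e-06). Its partner H2-DMb1 had 92.4, 93.02 and 103.2 CPM at P21 and 11.4, 20.001 and 11.8 CPM at P3 (log2 change 2.74 ± 0.25, adjusted p = 2.05e-05). Reads can be shared among H2 genes, so the value of each chain is uncertain. Ciita, the coactivator on which class II genes depend, had 9.04, 2.76 and 11.7 CPM at P21 and 0, 3.15 and 0 CPM at P3 and did not pass (log2 change 2.92 ± 1.67, adjusted p = 0.413). The factor genes Rfx5, Rfxap and Rfxank, whose products bind class II promoters, were not called either.

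Class II promoters are known for a compact upstream module with a Y box, the letters ATTGG, bound by the factor NF-Y. Of the 6 called class II genes, 4 had a promoter in the RefSeq table for GRCm38.p6 (H2-Aa, H2-Eb1, H2-DMa and H2-DMb1), and all 4 held ATTGG on either strand within 250 bases before the start, as did 37.5% of all 27025 genes in that table. The sequences below are the 150 bases before the start of genes with a large rise at P21, 5′ to 3′ on the gene's strand, with ATTGG or its complement in capitals. H2-Aa lies at chr17:34287824-34287973 on the minus strand, H2-Eb1 at chr17:34305717-34305866 on the plus strand and H2-DMb1 at chr17:34153041-34153190 on the plus strand.
H2-Aa: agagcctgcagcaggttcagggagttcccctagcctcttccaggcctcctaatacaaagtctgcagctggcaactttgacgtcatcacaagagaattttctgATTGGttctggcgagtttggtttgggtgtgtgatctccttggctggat
H2-Eb1: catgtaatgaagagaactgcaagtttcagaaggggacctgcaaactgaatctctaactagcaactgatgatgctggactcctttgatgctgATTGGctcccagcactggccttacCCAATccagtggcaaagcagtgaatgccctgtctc
H2-DMb1: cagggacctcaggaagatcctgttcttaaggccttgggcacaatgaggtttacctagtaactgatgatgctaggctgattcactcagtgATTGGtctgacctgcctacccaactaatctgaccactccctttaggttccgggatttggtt
The match farthest from the start began 48 bases before the start in H2-Aa, 59 in H2-Eb1 and 61 in H2-DMb1. H2-Eb1 and H2-DMb1 shared the 13-base stretch aactgatgatgct further upstream. A match describes the letters of this window and does not show binding.

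Genes for costimulation and checkpoint ligands rose in 4 of 12 tested members, with 0 lower (median 0.95). Cd83, a surface protein that stabilises MHC class II, had 6576, 5208 and 3991 CPM at P21 and 1059.7, 978 and 826 CPM at P3 (log2 change 2.46 ± 0.34, adjusted p = 8.27e-04). Vsir, the gene for the checkpoint protein VISTA, had 339.7, 328 and 414 CPM at P21 and 183, 170.2 and 135 CPM at P3 (log2 change 1.15 ± 0.18, adjusted p = 0.00271). Tnfsf9, the ligand of 4-1BB, had 210.3, 229 and 211 CPM at P21 and 96.5, 66.4 and 61.7 CPM at P3 (log2 change 1.53 ± 0.26, adjusted p = 0.00383). None of these libraries overlapped between the ages. The classical costimulatory genes Cd80 and Cd86 had log2 changes of 0.90 and 0.48 and were not called.

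Of 18 tested MHC class I members 4 rose and 0 fell (median 0.42). H2-D1, a classical class I heavy chain, had 4064, 3649 and 3247 CPM at P21 and 2269, 2272 and 2030.0 CPM at P3, 1.67-fold apart (log2 change 0.74 ± 0.10, adjusted p = 9.88e-04). H2-T23, the non-classical chain Qa-1, had 241, 158 and 219 CPM at P21 and 104.1, 108.2 and 68.99 CPM at P3 (log2 change 1.14 ± 0.18, adjusted p = 0.0028). The common light chain B2m was not called (log2 change 0.34). The class I count was 2 without P21 replicate 1, P3 replicate 2 or P3 replicate 3. Of 25 interferon-stimulated genes 4 rose and 0 fell (median 0.67), among them Ifitm3, a membrane protein that blocks virus entry, with 759, 634 and 661 CPM at P21 and 207, 229 and 205 CPM at P3 (log2 change 1.68 ± 0.17, adjusted p = 8.07e-05). Ly6e, another interferon-induced membrane protein, had 4765, 4209 and 4635 CPM at P21 and 1506, 1909 and 1418 CPM at P3 (log2 change 1.49 ± 0.15, adjusted p = 4.94e-05). Isg15 and Irf7, which the interferon response induces widely, were not called, with log2 changes of 0.89 and 0.79. The interferon count was 2 without P21 replicate 2, P3 replicate 2 or P3 replicate 3.

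Among 16 tested complement genes, 8 rose and 0 fell (median 0.98), and the count was 8 in each of the 6 fits that left out a library. The chains of C1q, the recognition molecule of the classical pathway, moved side by side. C1qa had 5026, 5193 and 5298 CPM at P21 and 2349, 2374 and 2199 CPM at P3 (log2 change 1.16 ± 0.10, adjusted p = 1.58e-05). C1qb had 11457, 10246 and 9845 CPM at P21 and 4947, 4399 and 4492 CPM at P3 (log2 change 1.19 ± 0.10, adjusted p = 1.42e-05). The third chain, C1qc, had 8689, 7901 and 7619 CPM at P21 and 4436, 4139 and 4011 CPM at P3 (log2 change 0.94 ± 0.11, adjusted p = 1.46e-04). Each chain was about 2-fold higher at P21 with little spread within an age. Cfp, which encodes properdin, the stabiliser of the alternative pathway convertase, had 1193, 1286 and 1273 CPM at P21 and 632, 662 and 631 CPM at P3 (log2 change 0.96 ± 0.10, adjusted p = 1.01e-04). C4b, a component cleaved downstream of C1q, was low at P3, with 75.1, 61.4 and 117 CPM at P21 and 5.36, 2.74 and 8.58 CPM at P3, 15.1-fold apart (log2 change 3.92 ± 0.54, adjusted p = 7.98e-04). The receptor gene C5ar1 and the regulator gene Cd55, named after their values were seen, also rose, with log2 changes of 1.0 and 2.16. C3, the central component, was not called (log2 change 0.79).

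Among 29 tested chemokine and cytokine genes, 10 rose and 1 fell (median 1.05). Il1b, the inflammatory cytokine interleukin-1 beta, had 2596, 2296 and 2194 CPM at P21 and 443, 448 and 468 CPM at P3, 5.21-fold apart (log2 change 2.38 ± 0.15, adjusted p = 8.53e-07). Ccl8, a chemokine gene used as a sign of alternative activation, had 486, 416 and 467 CPM at P21 and 11.1, 31.6 and 19.7 CPM at P3 (log2 change 4.46 ± 0.42, adjusted p = 3.08e-05). The membrane-bound chemokine gene Cxcl16 had 331, 446 and 295 CPM at P21 and 65.3, 79.1 and 96.6 CPM at P3 (log2 change 2.15 ± 0.18, adjusted p = 1.42e-05). Libraries of the ages lay far apart for all 3 genes, most of all for Ccl8. Ccl12, a ligand of CCR2, had 944, 788 and 839.8 CPM at P21 and 268, 377 and 355 CPM at P3 (log2 change 1.36 ± 0.18, adjusted p = 5.75e-04). Il18, named after its values were seen as the only member that fell, had 99.5, 70.5 and 68.6 CPM at P21 and 177, 183 and 203 CPM at P3 (log2 change -1.24 ± 0.22, adjusted p = 0.00625). The inflammatory genes Tnf, Ccl3 and Cxcl1 were not called, with log2 changes of -0.56, -0.65 and -0.13. Without P3 replicate 1 or P3 replicate 3 the count of members that rose was 5, and without P21 replicate 2 the count that fell was 2.

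Genes of alternative activation, the state linked to type 2 cytokines, rose in 7 of 14 tested members with 0 lower (median 0.98), and Mgl2, Clec10a and Ccl8, given above, were among them. Retnla, a secreted effector of that state, was uneven between the P21 libraries, with 14.1, 1.93 and 107.1 CPM at P21 and 0.0301, 0.258 and 0 CPM at P3 (log2 change 8.86 ± 1.83, adjusted p = 0.0149). Its call was lost without P3 replicate 1 (adjusted p = 0.0849) and without P3 replicate 3 (0.0789). Arg1, another effector, was not called (log2 change -2.28). The count of 7 was 4 without P21 replicate 1, P21 replicate 2, P3 replicate 1 or P3 replicate 2, and 3 without P3 replicate 3. In the list of pattern recognition and Fc receptors, 7 of 25 rose and 0 fell (median 0.42), among them Cd14, given above. Fcgr3, an activating receptor for IgG, had 2838, 2629.7 and 2239 CPM at P21 and 1545, 1576 and 1465 CPM at P3 (log2 change 0.75 ± 0.13, adjusted p = 0.00515). The Toll-like receptor genes Tlr2 and Tlr4, for bacterial lipoprotein and lipopolysaccharide, were not called (log2 changes -0.00061 and -0.12). The count of 7 was 3 without P21 replicate 2, 4 without P3 replicate 3 and 2 without P3 replicate 1 or P3 replicate 2.

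Among the genes named for the size of their rise, Pla2g2d, a secreted phospholipase gene, had the largest log2 change of those that kept their call without any 1 library. It had 289, 273 and 246 CPM at P21 and 3.70, 1.45 and 3.93 CPM at P3, 87.5-fold apart (log2 change 6.45 ± 0.85, adjusted p = 5.84e-04). Vcam1, an adhesion molecule that binds the integrin VLA-4, had 1296, 1992 and 991 CPM at P21 and 95.6, 135 and 194 CPM at P3 (log2 change 3.33 ± 0.41, adjusted p = 3.05e-04). Siglech, a lectin gene of microglia and plasmacytoid dendritic cells, had 124, 164 and 149 CPM at P21 and 12.3, 22.5 and 6.78 CPM at P3 (log2 change 3.40 ± 0.45, adjusted p = 5.75e-04). For each of these the lowest P21 library was more than 5-fold above the highest P3 library. Slc25a33, a mitochondrial pyrimidine nucleotide carrier, had 86.7, 71.5 and 44.6 CPM at P21 and 6.78, 8.68 and 3.85 CPM at P3 (log2 change 3.39 ± 0.43, adjusted p = 4.09e-04). Comp, a cartilage matrix protein gene and also among the largest rises, had 83.3, 8.35 and 31.7 CPM at P21 and 0.241, 0 and 1.42 CPM at P3 (log2 change 6.19 ± 1.21, adjusted p = 0.0113), and it lost its call without P21 replicate 1 (0.0526) and without P3 replicate 1 (0.0619). Slc28a2, a nucleoside transporter gene, had 11.98, 22.2 and 28.6 CPM at P21 and 0.693, 1.03 and 0 CPM at P3 (log2 change 5.18 ± 1.32, adjusted p = 0.0459). That call was lost without each library in turn, with adjusted p from 0.0613 to 0.158.

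**Figure D3:**
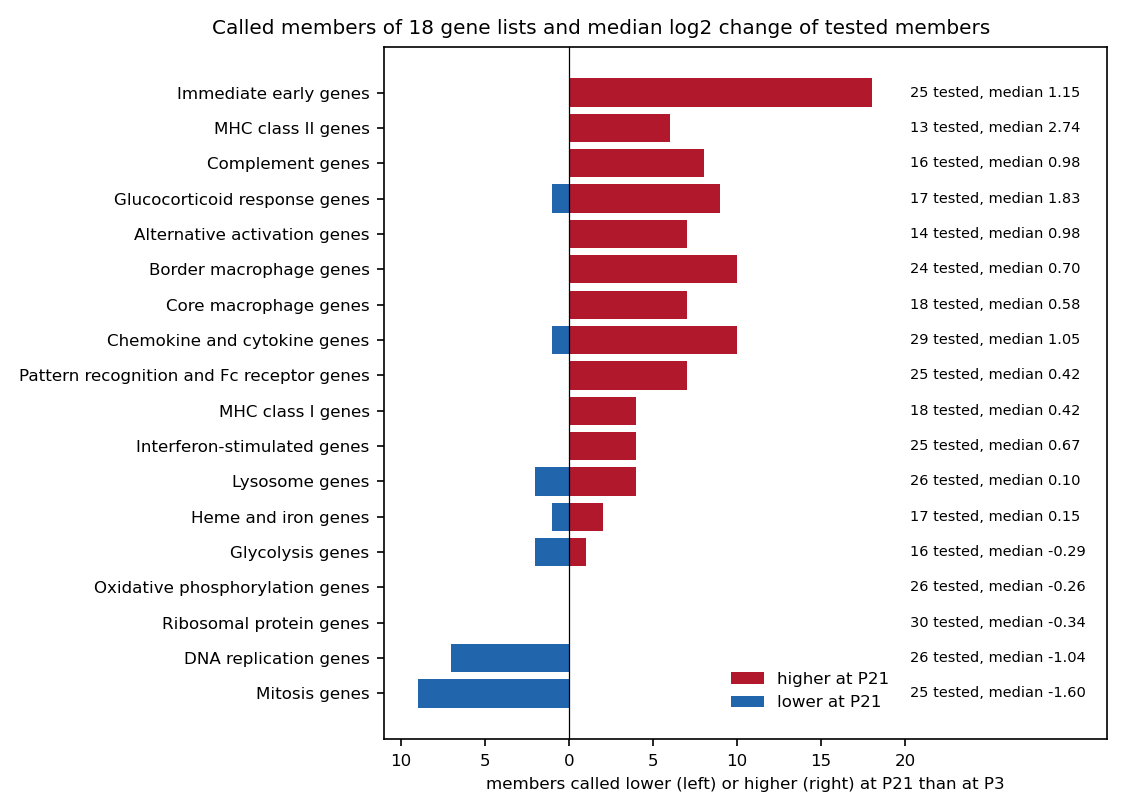
Bars show how many members of each of 18 gene lists were called higher (red, right) or lower (blue, left) at P21 than at P3 (x axis, genes), with the number of tested members and the median log2 change beside each list. The immediate early list has the longest red bar with 18 of 25, and the DNA replication and mitosis lists have blue bars only, with 7 of 26 and 9 of 25.

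Targets of the glucocorticoid receptor, the nuclear receptor for corticosterone in mice, included 9 of 17 tested members that rose and 1 that fell (median 1.83). Tsc22d3, the glucocorticoid-induced leucine zipper, had 1543, 2290.0 and 1306 CPM at P21 and 217, 235 and 209 CPM at P3, 7.78-fold apart (log2 change 2.96 ± 0.26, adjusted p = 1.42e-05). Klf9, a transcription factor induced by the receptor, had 42.97, 64.3 and 74.8 CPM at P21 and 0.723, 6.36 and 6.40 CPM at P3 (log2 change 3.76 ± 0.66, adjusted p = 0.00535). Errfi1, a feedback inhibitor of the EGF receptor, had 201, 289 and 256 CPM at P21 and 82.7, 62.5 and 81.9 CPM at P3 (log2 change 1.71 ± 0.24, adjusted p = 9.69e-04). The ages did not overlap for these genes, and Tsc22d3 was highest in P21 replicate 2 while its P3 libraries lay close together. The receptor gene itself, Nr3c1, was not called (log2 change 0.36). Fkbp5, a chaperone of the receptor that was named after its values were seen, had 71.4, 193 and 204 CPM at P21 and 20.2, 18.8 and 19.9 CPM at P3 (log2 change 2.99 ± 0.62, adjusted p = 0.0155). Its call was lost without each P3 library in turn, with adjusted p from 0.0697 to 0.0748. The count of 9 was 5 without P3 replicate 2 or P3 replicate 3. The member that fell, Lcn2, had 0 counts in all 3 P21 libraries and 5.33, 6.46 and 1.30 CPM at P3. Against a floor of 3 counts over the P21 libraries it was at least 87.8-fold lower at P21 (adjusted p = 0.0482), and the call was lost without each library in turn, with adjusted p up to 0.143. Lcn2 is also a neutrophil gene, and the levels of neutrophil markers are given with the other cell types.

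The metallothionein genes Mt1 and Mt2, whose products bind zinc, are induced by metals and by glucocorticoids. Both were already counted among the 9 glucocorticoid response genes that rose. Mt1 had 2219, 1603 and 1104 CPM at P21 and 383, 367 and 343 CPM at P3 (log2 change 2.17 ± 0.33, adjusted p = 0.00173). Mt2 had 278, 209 and 145 CPM at P21 and 26.2, 20.4 and 18.2 CPM at P3, 9.74-fold apart (log2 change 3.28 ± 0.53, adjusted p = 0.00272). Both were highest in P21 replicate 1 and lowest in P21 replicate 3, and even the lowest P21 library was above all P3 libraries. Of 18 tested genes of metallothionein and oxidative defence, 3 rose and 0 fell, with a median of -0.04, and the third was Gpx3, a secreted glutathione peroxidase, with 1416, 1266 and 1258 CPM at P21 and 413, 412 and 389 CPM at P3 (log2 change 1.70 ± 0.19, adjusted p = 1.40e-04). Hmox1 and Slc7a11, targets of the oxidative stress factor NRF2, were not called, with log2 changes of -1.36 and -2.33. Metallothionein promoters are known for metal response elements with the core TGCNCNC. Both genes held it within 250 bases before the start, as did 47.2% of all genes in the RefSeq table, so a match is common. Their 150 bases before the start (GRCm38.p6) are printed because these neighbours rose together, with the core on either strand in capitals. Mt1 lies at chr8:94178939-94179088 and Mt2 at chr8:94172468-94172617, both on the plus strand.
Mt1: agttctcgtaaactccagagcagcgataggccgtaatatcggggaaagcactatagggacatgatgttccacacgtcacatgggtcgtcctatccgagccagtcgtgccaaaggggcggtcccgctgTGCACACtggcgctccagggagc
Mt2: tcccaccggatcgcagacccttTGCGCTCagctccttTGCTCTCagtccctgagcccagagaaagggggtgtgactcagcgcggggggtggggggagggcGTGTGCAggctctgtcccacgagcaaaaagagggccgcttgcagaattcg
In this window Mt1 held 1 match, and Mt2 held 3.

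Immediate early genes, which are transcribed within minutes of many stimuli, rose in 18 of 25 tested members, and 0 fell (median 1.15). The count was between 12 and 17 in the fits that left out a library. Btg2, an antiproliferative gene of this class, had 5542, 4577 and 4180.1 CPM at P21 and 607, 706 and 478 CPM at P3, 7.98-fold apart (log2 change 3.00 ± 0.20, adjusted p = 9.31e-07). Dusp1, a phosphatase that switches off MAP kinases, had 3215, 2954 and 2946 CPM at P21 and 972, 912 and 1008 CPM at P3 (log2 change 1.66 ± 0.10, adjusted p = 4.46e-07). Atf3, a stress-induced transcription factor, had 1787, 2406 and 1696 CPM at P21 and 316, 303 and 221 CPM at P3 (log2 change 2.81 ± 0.28, adjusted p = 5.55e-05). Of these, Dusp1 had the least spread within each age, and in none did the ages overlap. Klf6, a zinc finger transcription factor, had 1828, 2269.8 and 2089.8 CPM at P21 and 721, 807 and 698 CPM at P3 (log2 change 1.48 ± 0.12, adjusted p = 7.84e-06). Fos, a subunit of AP-1 named after its values were seen, had 3714, 3766 and 4372 CPM at P21 and 2204, 2215 and 1965 CPM at P3 (log2 change 0.89 ± 0.14, adjusted p = 0.00201). The members not called were Junb, Egr2, Egr3, Ier3, Dusp2, Dusp6 and Nr4a2. Egr1 was called (adjusted p = 0.0398) but lost its call in all fits that left out a library except the one without P21 replicate 2.

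Of 11 tested heat shock genes, a list assembled after the values were seen, 3 were called higher and 0 lower (median 0.52). Dnajb4, a co-chaperone of HSP70, had 75.05, 107.8 and 71.3 CPM at P21 and 23.9, 22.7 and 8.41 CPM at P3 (log2 change 2.21 ± 0.42, adjusted p = 0.0088). Dnajb1, another co-chaperone, had 453, 601 and 292 CPM at P21 and 111, 143 and 168 CPM at P3 (log2 change 1.67 ± 0.32, adjusted p = 0.00956). Hspa1a, an inducible HSP70, had 61.2, 178 and 49.8 CPM at P21 and 18.8, 12.3 and 14.1 CPM at P3 (log2 change 2.67 ± 0.55, adjusted p = 0.0148). Dnajb4, Dnajb1 and Hspa1a were all highest in P21 replicate 2. Dnajb1 lost its call without P3 replicate 1 (0.0572), and Hspa1a lost it without P21 replicate 2 (0.0609) and without P3 replicates 1, 2 and 3 (0.0505, 0.0786 and 0.074). The abundant chaperone genes Hsp90ab1 and Hspa8 were not called (log2 changes 0.47 and 1.10).

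Many immediate early promoters are known for sites of the cAMP response factor CREB, whose core is TGACG. Of the 18 called members 16 had a promoter in the RefSeq table, and 9 of these held TGACG on either strand within 250 bases before the start (Atf3, Btg1, Btg2, Dusp1, Fos, Fosb, Klf2, Klf4 and Nr4a1), as did 19.8% of all genes in that table. The promoter of Btg2, the called member with the second smallest p, and that of Fos are printed with this core on either strand in capitals (GRCm38.p6). Btg2 is shown for the 180 bases before its start at chr1:134079156-134079335 on the minus strand, and Fos for 150 bases at chr12:85473740-85473889 on the plus strand.
Btg2: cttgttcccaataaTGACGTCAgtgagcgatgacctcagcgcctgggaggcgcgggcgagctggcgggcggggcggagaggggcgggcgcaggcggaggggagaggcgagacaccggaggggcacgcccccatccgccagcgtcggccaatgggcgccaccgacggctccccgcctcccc
Fos: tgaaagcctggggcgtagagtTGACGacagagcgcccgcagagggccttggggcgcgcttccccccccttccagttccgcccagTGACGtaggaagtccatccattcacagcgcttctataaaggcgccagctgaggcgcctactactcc
In Btg2 the matches on both strands overlapped and formed TGACGTCA, and in Fos there were 2 separate matches.

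Of 25 tested mitosis genes 9 fell and 0 rose, with a median log2 change of -1.60, and all 25 had a negative log2 change. Cdk1, the kinase that drives entry into mitosis, had 49.4, 78.1 and 85.9 CPM at P21 and 216, 219 and 182 CPM at P3, 2.89-fold apart (log2 change -1.53 ± 0.26, adjusted p = 0.00434). Birc5, the survivin gene of the chromosomal passenger complex, had 45.03, 52.1 and 55.8 CPM at P21 and 154, 168 and 144 CPM at P3 (log2 change -1.60 ± 0.22, adjusted p = 8.30e-04). Cdca8, the borealin gene of the same complex, had 22.9, 29.1 and 37.3 CPM at P21 and 126, 109.8 and 98.03 CPM at P3 (log2 change -1.90 ± 0.21, adjusted p = 1.32e-04). Each P21 library lay below each P3 library, and transcripts remained detectable at P21. Cdc20, the activator of the anaphase-promoting complex, had 10.4, 8.71 and 26.6 CPM at P21 and 77.8, 114 and 49.5 CPM at P3 (log2 change -2.40 ± 0.45, adjusted p = 0.0084). Kif20a, a kinesin of cytokinesis, had 11.5, 7.93 and 24.1 CPM at P21 and 61.4, 50.3 and 60.8 CPM at P3 (log2 change -1.99 ± 0.37, adjusted p = 0.00797). The centromere protein gene Cenpn, one of the largest falls, had 2.15, 0.470 and 3.08 CPM at P21 and 29.8, 26.7 and 23.9 CPM at P3 (log2 change -3.81 ± 0.69, adjusted p = 0.0065). Mki67, the Ki-67 gene, was not called (log2 change -0.83). Mitosis list members numbered 5 without P21 replicate 1 or P3 replicate 2, and 15 without P21 replicate 3, which had the highest level of most of these genes at P21. With only the 6 libraries of P21 and P3 in the fit, 4 mitosis genes and 2 DNA replication genes fell.

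Among 26 tested genes of DNA replication, 7 fell and 0 rose (median -1.04), and all 26 had a negative log2 change. Mcm5, a subunit of the replicative helicase, had 84.2, 79.03 and 114 CPM at P21 and 221, 204 and 195 CPM at P3 (log2 change -1.16 ± 0.17, adjusted p = 0.00104). Gins2, a subunit of the GINS complex that activates the helicase, had 21.9, 19.2 and 29.1 CPM at P21 and 63.5, 54.8 and 58.2 CPM at P3 (log2 change -1.33 ± 0.24, adjusted p = 0.00583). For 21 of the 26 genes all P21 libraries lay below all P3 libraries, where this held for 11.2% of all tested genes. Pcna, the polymerase clamp, was not called (log2 change -0.30). The count of 7 was 2 without P21 replicate 1 or P3 replicate 2, 3 without P3 replicate 1 or P3 replicate 3 and 4 without P21 replicate 2. Of 16 tested oncofetal and growth genes 2 fell and 0 rose (median -1.29), with a count of 1 in each fit that left out a library other than P21 replicate 3. Cdkn1c, an imprinted inhibitor of cyclin-dependent kinases, had 42.8, 32.7 and 42.1 CPM at P21 and 87.4, 169 and 167 CPM at P3 (log2 change -1.85 ± 0.29, adjusted p = 0.00211). It fell although it restrains division, so the members of this list do not share 1 role.

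Promoters of late cell cycle genes are known for CCAAT boxes, the same letters as the Y box read on the other strand, and for the cell cycle homology region TTTGAA. Of the 9 called mitosis genes 7 had a promoter in the RefSeq table. CCAAT was found within 250 bases before the start in 6 of them (Aurka, Ccnb2, Cdc20, Cdca8, Cdk1 and Ube2c), beside 37.5% of all genes, and TTTGAA in 4 (Ccnb2, Cdc20, Cdk1 and Ube2c), beside 18.3%. The 150 bases before the start of Cdk1 (GRCm38.p6, chr10:69352913-69353062, minus strand) are printed as the promoter of the called mitosis gene with the highest level at P3, with both motifs on either strand in capitals.
Cdk1: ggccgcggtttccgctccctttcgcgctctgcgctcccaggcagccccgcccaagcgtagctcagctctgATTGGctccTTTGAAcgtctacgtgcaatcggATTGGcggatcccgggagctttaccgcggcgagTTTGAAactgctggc
This window held 2 matches of each motif.

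Few genes of the metabolic lists were called. Of 16 tested glycolysis genes 2 fell and 1 rose (median -0.29). Pkm, the pyruvate kinase of macrophages, had 223, 162 and 201 CPM at P21 and 353, 350.1 and 354 CPM at P3 (log2 change -0.85 ± 0.14, adjusted p = 0.00286). Ldha, lactate dehydrogenase, was called lower (adjusted p = 0.0346) and lost that call without each library in turn. Pfkfb3, a regulator of glycolysis, was called higher (adjusted p = 0.0203) and lost that call without P21 replicate 1 and without each P3 library. Of 26 oxidative phosphorylation genes and 30 ribosomal protein genes, edgeR called 0 in either direction, with medians of -0.26 and -0.34. The changes were small but mostly negative, with positive log2 changes in only 1 and 2 members. All P21 libraries lay below P3 for 9 and 12 members, beside 11.2% of all tested genes. At an unadjusted edgeR p under 0.05, 7 and 6 of them passed, beside 2440 of all 14683 tested genes. DESeq2 called 1 of each list lower, and limma voom called 0. With library totals alone, 6 and 5 of them were lower. Pygl, the liver-type glycogen phosphorylase, was among the largest falls, with 15.1, 10.3 and 29.5 CPM at P21 and 106.6, 82.8 and 101.3 CPM at P3, 5.29-fold apart (log2 change -2.40 ± 0.37, adjusted p = 0.00211).

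Lysosome genes moved in both directions, with 4 of 26 higher and 2 lower (median 0.10, or -0.17 with library totals alone). Hgsnat, a lysosomal acetyltransferase of heparan sulfate breakdown, had the smallest p of all 138 genes that fell, with 249, 215 and 262 CPM at P21 and 1169, 987 and 975 CPM at P3, 4.31-fold lower at P21 (log2 change -2.11 ± 0.13, adjusted p = 7.53e-07). Ctsh, a cathepsin, had 1555, 1508 and 1194 CPM at P21 and 507, 523 and 533 CPM at P3 (log2 change 1.45 ± 0.13, adjusted p = 2.05e-05). The other member that fell, Atp6v1b2, a proton pump subunit (adjusted p = 0.0205), lost its call without each library in turn, and the count of members that rose was 2 without P3 replicate 1 or P3 replicate 3. Of 17 heme and iron genes 2 rose and 1 fell (median 0.15, or -0.12 with library totals alone). Trf, transferrin, the iron carrier of plasma, had 7006, 6359 and 6412 CPM at P21 and 2276, 2344 and 2299 CPM at P3 (log2 change 1.52 ± 0.13, adjusted p = 1.42e-05). Slc48a1, a heme transporter of the lysosome, had 192, 189 and 158 CPM at P21 and 313, 293 and 375 CPM at P3 (log2 change -0.86 ± 0.14, adjusted p = 0.00346). The iron exporter gene Slc40a1 was not called (log2 change -1.17).

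Of 19 tested lipid handling genes 3 rose and 0 fell (median 0.02, or -0.24 with library totals alone). Apoe, an apolipoprotein and the most abundant transcript named here, had 49824, 42549 and 39149.8 CPM at P21 and 20037, 17829.7 and 16891 CPM at P3 (log2 change 1.26 ± 0.17, adjusted p = 6.37e-04). Pltp, the phospholipid transfer protein, had 1049, 1035 and 1155 CPM at P21 and 276, 276 and 233 CPM at P3 (log2 change 2.05 ± 0.12, adjusted p = 4.46e-07). The cholesterol efflux genes Abca1 and Abcg1 were not called, with log2 changes of -0.24 and -0.68. Of 20 genes of developmental phagocytes 2 rose and 3 fell (median 0.05, or -0.21 with library totals alone). Spp1, the osteopontin gene, had 37.5, 54.8 and 9.88 CPM at P21 and 345, 148 and 472 CPM at P3 (log2 change -3.24 ± 0.70, adjusted p = 0.0191). The call on Spp1 was lost without P21 replicate 1 (0.0653), P3 replicate 1 (0.0555) and P3 replicate 3 (0.0734). The 2 rises were 1 without P3 replicate 1 or P3 replicate 2, the 3 falls were 0 or 1 in each fit that left out a library, and Prdm1, a transcriptional repressor outside it that was among the largest falls, kept its call in every fit, with 8.60, 5.89 and 7.85 CPM at P21 and 39.5, 33.6 and 23.8 CPM at P3 (log2 change -2.12 ± 0.36, adjusted p = 0.0044).

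Transcripts that mark other cell types differed between the ages in both directions. Summed over 12 mast cell markers, the level was 4.05 to 11.5 CPM of the library total at P21 and 645 to 1778 at P3. The mast cell protease genes Cpa3, Tpsb2 and Cma1 were called lower, with log2 changes of -7.80, -6.89 and -6.35 and adjusted p of 0.0427, 0.0287 and 0.0399. Each of these 3 calls was lost without each library in turn. Mcpt1, Mcpt2, Fcer1a and Ms4a2, proteases and IgE receptor chains of mast cells, were at 0 counts in all P21 libraries. They were also low at P3, with 20, 42, 165 and 155 counts over its libraries, and those of Mcpt1 were all in P3 replicate 2. Erythroid markers summed to 6.31 to 62.2 CPM of the total at P21 and 153 to 337 at P3, and in P21 replicates 2 and 3 most of the sum was Tfrc, the transferrin receptor gene that other cells also express. Hbb-bs, a beta-globin gene, had 0.782, 0.209 and 1.78 CPM at P21 and 57.97, 53.1 and 142 CPM at P3 (log2 change -6.49 ± 1.01, adjusted p = 0.00214). Reads shared among globin genes make the value of each uncertain. Of 9 tested erythroid markers 4 fell and 0 rose, with 1 without P21 replicate 2 or P3 replicate 3. Neutrophil markers summed to 153 to 236 CPM of the total at P21 and 431 to 1005 at P3, with Mmp9, also an osteoclast gene, as the largest share, and Ly6g, Cxcr2, Mmp8 and Lcn2 at 0 counts at P21. At P3, Ly6g and Mmp8 had counts only in P3 replicate 1 (43 and 79), and Cxcr2 had 19 counts over all P3 libraries. Of 8 tested neutrophil markers 1 fell and 0 rose, with 0 lower without each library in turn, and the member that fell was Lcn2. S100a8, S100a9, Ngp, Camp and Ltf were at 0 counts in P3 replicate 3, and Csf3r, a growth factor receptor of neutrophils, lay above P3 in all P21 libraries and was not called (log2 change 0.88). Osteoclast genes summed to 418 to 556 CPM of the total at P21 and 1242 to 1875 at P3. Of 11 tested, edgeR called 0, with Ctsk at a log2 change of -3.01, while limma voom called 1 lower and DESeq2 called 3 lower. At an unadjusted edgeR p under 0.05, 7 of the 11 passed, beside 2440 of all 14683 tested genes. The part of these transcripts in the falls given above was not tested.

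**Figure D4:**
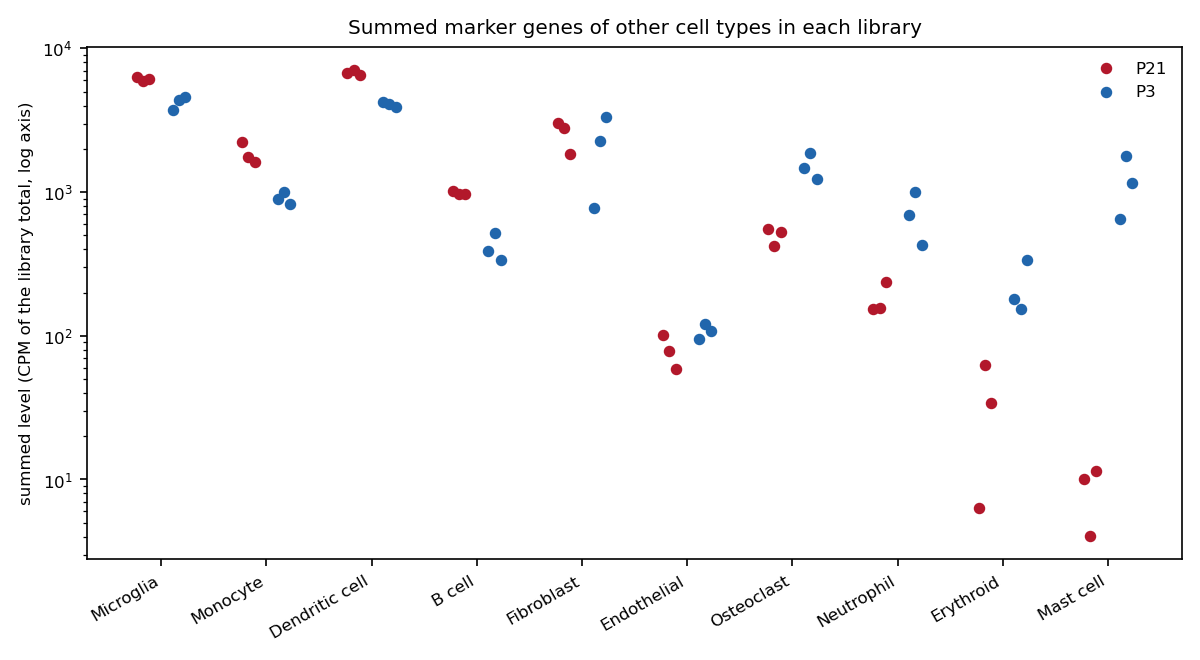
Each point is 1 library, with P21 in red left of P3 in blue, and shows the summed level of a marker list of another cell type (y axis, CPM of the library total, log scale). Mast cell markers lie between 4.05 and 11.5 at P21 and between 645 and 1778 at P3, the widest gap of the lists drawn, while fibroblast and endothelial markers overlap.

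Dendritic cell markers summed to 6516 to 7041 CPM of the total at P21 and 3918 to 4216 at P3, and nearly all of this was Cst3 and Sirpa, which macrophages express. These went in opposite directions. Cst3 had 5327 to 6170 CPM of the total at P21 and 2504 to 2797 at P3. Sirpa had 748 to 948 at P21 and 1288 to 1663 at P3 and was not called. Of 12 tested 4 rose and 0 fell, with 2 without P3 replicate 1 or P3 replicate 3. Among defining genes, Xcr1 and Clec9a were at 0 counts at P21, and Flt3 was at no more than 1.95 CPM of the total in any P21 library. Zbtb46, a transcription factor gene of classical dendritic cells, had 24.8 to 26.1 CPM of the total at P21 and 24.4 to 41.02 at P3 and was not called. Batf3, a factor needed by a class of dendritic cells, had 13.5, 9.70 and 9.35 CPM at P21 and 1.57, 2.84 and 0.711 CPM at P3 (log2 change 2.67 ± 0.63, adjusted p = 0.0311), and lost its call without P21 replicate 1 or 2 and P3 replicate 1 or 3. Cd209a, given above, was also on this list, while Ccr7, Dpp4 and Itgax were not called, with log2 changes of 6.27, 3.43 and 2.92. Kmo, a kynurenine pathway enzyme on this list, had 73.4, 62.6 and 92.2 CPM at P21 and 14.1, 9.92 and 10.04 CPM at P3 (log2 change 2.74 ± 0.30, adjusted p = 1.24e-04). B cell markers summed to 964 to 1023 CPM of the total at P21 and 336 to 522 at P3, mostly from Ighm, the IgM heavy chain. Ms4a1 and Igkc were at 0 counts at both ages. Ighm had 902, 719 and 747 CPM at P21 and 213, 336 and 178 CPM at P3 (log2 change 1.70 ± 0.20, adjusted p = 2.32e-04). Of 6 tested B cell markers 3 rose and 0 fell, with 1 without P3 replicate 1. The others that rose were Ighd, the IgD heavy chain, and Blnk, an adaptor of B cell receptor signalling, with log2 changes of 4.41 and 1.69. Ighd lost its call without P21 replicate 1 (edgeR adjusted p = 0.0944) and without P3 replicate 1 (0.130). Blnk lost its call in every fit that left out a library except the one without P21 replicate 1, with adjusted p up to 0.166. Cd79b, a chain of that receptor, had 106.9, 128 and 89.2 CPM at P21 and 94.9, 74.4 and 59.9 CPM at P3, overlapped between the ages and was not called (log2 change 0.50). Microglia markers summed to 5970 to 6305 CPM of the total at P21 and 3713 to 4619 at P3, and 4 of 11 rose with 0 lower. P2ry12 and Tmem119, defining genes of microglia, were not called (log2 changes 0.33 and 0.77). Monocyte markers summed to 1619 to 2225 CPM of the total at P21 and 830.5 to 994 at P3. Most of each sum was Nr4a1, also an immediate early gene, with 1502 to 2105 at P21 and 716 to 902 at P3. Nr4a1 was also the 1 of 12 that rose, with 0 without P21 replicate 1, P3 replicate 1 or P3 replicate 3. All P21 libraries lay above P3 for Ccr2 and below P3 for Vcan and Itgal, and these were not called. Fibroblast markers overlapped, with 1827 to 3043 CPM of the total at P21 and 777 to 3331 at P3, and 1 of 16 rose, with 0 in each fit that left out a library other than P21 replicate 3. The part of these markers in the rises given above was not tested.

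An older age was also set against a younger one in other libraries, P56 against P10, in a fit of those 6 libraries alone. These libraries had also entered the fit of P21 against P3, where they helped to estimate the spread, so the p-values of both comparisons are not wholly independent. The P56 libraries carried another batch label than the P10 libraries, so age and batch cannot be told apart there. Of 12598 tested genes 469 (3.72%) were called, 284 higher at P56 (2.25%) and 185 lower (1.47%). Of the 396 genes higher at P21 than at P3, 129 were also called higher at P56 than at P10, which is 32.6% of the first list and 45.4% of the second. Of the 138 genes lower at P21, 34 were called lower at P56, 24.6% of the first list and 18.4% of the second. Called in opposite directions were 0 genes. Leaving out P56 replicate 4, 5 or 6 turned the count of 129 into 175, 81 or 61, and leaving out P10 replicate 1, 2 or 3 turned it into 27, 34 or 33. The count of 34 was 17 or 13 when P56 replicate 5 or 6 was left out, and 5, 7 or 7 when P10 replicate 1, 2 or 3 was.

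Single genes of these groups differed in whether P56 against P10 gave a call in the same direction. Cd74 averaged 15253 ± 1445 CPM at P56 and 747 ± 271 CPM at P10 (log2 change 4.33 ± 0.31, adjusted p = 0.00228). C1qa averaged 7348 ± 829 CPM at P56 and 3287 ± 361 CPM at P10 (log2 change 1.15 ± 0.15, adjusted p = 0.01). Cdk1 averaged 38.7 ± 14.2 CPM at P56 and 132 ± 10.7 CPM at P10 (log2 change -1.78 ± 0.30, adjusted p = 0.0259). These 3 changed at P56 in the direction they had at P21. Tsc22d3 averaged 1472 ± 509.5 CPM at P56 and 226 ± 40.9 CPM at P10 (log2 change 2.69 ± 0.27, adjusted p = 0.00564), and its P10 mean lay close to its P3 mean of 220.1 CPM. Mt1 averaged 1070.0 ± 516 CPM at P56 and 888 ± 151 CPM at P10 and was not called (log2 change 0.24 ± 0.33, adjusted p = 0.781). Il1b averaged 1621 ± 391 CPM at P56 and 944 ± 88.5 CPM at P10 and was not called either (log2 change 0.76 ± 0.19, adjusted p = 0.0693). The means of Mt1 and Il1b over the 4 postnatal ages were highest at P21, and no test between P56 and P21 was made. Tnfsf9 had almost equal means at P56 and P10 (log2 change -0.02 ± 0.29, adjusted p = 0.985), although it rose at P21 over P3.

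**Figure D5:**
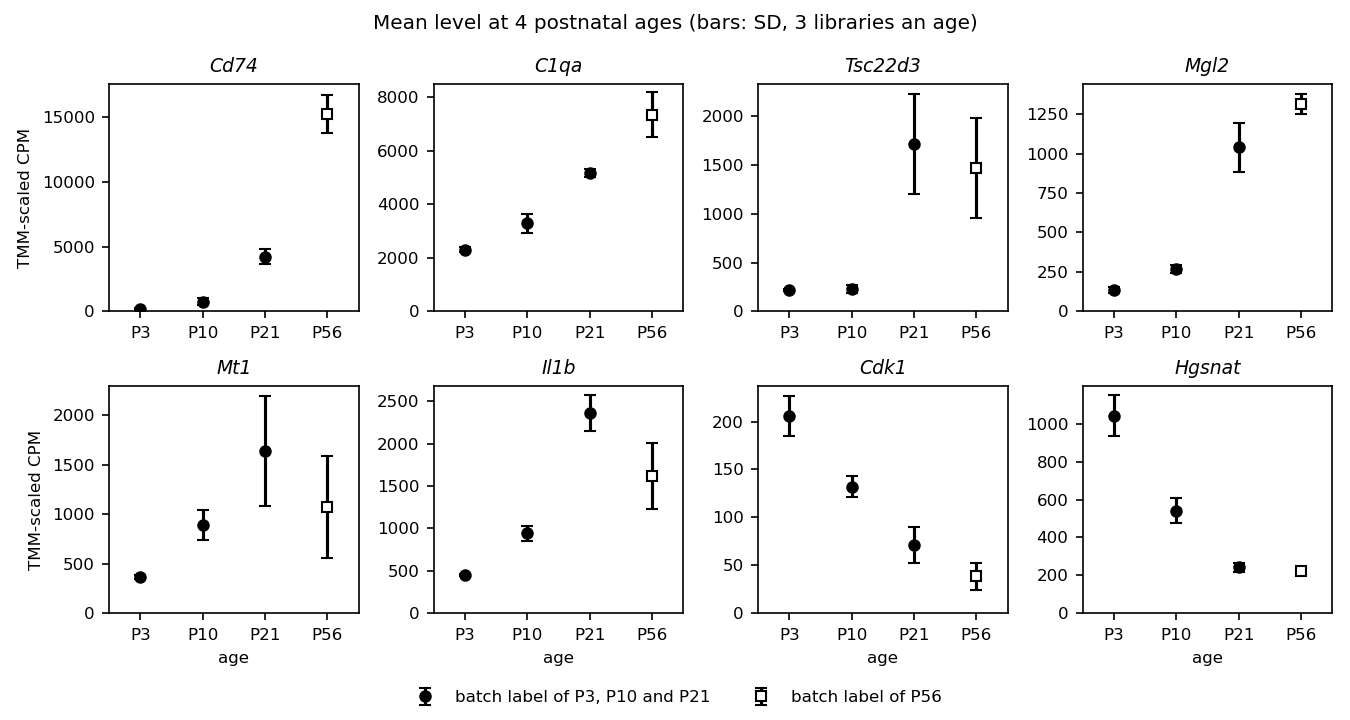
Each panel shows the mean level of 1 gene (y axis, TMM-scaled CPM, linear from 0) at P3, P10, P21 and P56 with its SD over 3 libraries, with P56 drawn as an open square because it carries another batch label. Cd74, C1qa and Mgl2 have their highest mean at P56, Tsc22d3, Mt1 and Il1b at P21, and Cdk1 and Hgsnat at P3.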

How the data were processed

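RNA of sorted CD206-positive dural cells was amplified (SMARTer Ultra Low Input, v4) and tagmented (Nextera XT), per the labels' protocols, with no molecular identifiers. Reads were handled with bcl2fastq 2.18, STAR 2.7.8a and featureCounts 2.0.2, per the submitters' processing notes. Genome build, annotation and strand setting are not given in the sources used here, so overlapping and antisense genes cannot be separated. The authors deposited raw counts per gene symbol (53546 symbols), and these counts were used as deposited. CPM and changes were computed from them.

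Genes were filtered with filterByExpr by age and fitted with edgeR 4.0.16 (TMM, robust quasi-likelihood) in R 4.3.3 with age as the only term. All 15 libraries entered the fit, and p-values were Benjamini-Hochberg adjusted over all 14683 tested genes. P56 against P10 was fitted on its 6 libraries alone. The procedure was tested on simulated data. Alternatives were RLE, upper quartile and no scaling factors, other filters, thinning to the smallest library total, fewer libraries, a replicate block, limma 3.58.1 voom, DESeq2 1.42.0 and leaving out each library. Amplified reads are not independent molecules, so bounds against a count of 0 cover counting error only.

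Named genes were the 15 largest rises and 15 largest falls among called genes with a mean of at least 20 CPM in the higher age and no overlap between the libraries. Predicted models, pseudogenes, ribosomal protein and mitochondrial genes were left out. Added were up to 4 called members with the smallest p of each of the gene lists, and Mrc1, Csf1r, Cx3cr1, Adgre1 and Ptprc. Further members were named after their values were seen, including those not called, and some members are not reported here. Genes and lists were chosen with earlier results of these data known, so counts over lists are descriptions. Promoter sequences came from RefSeq (GRCm38.p6), matched by gene symbol. Motifs were searched on both strands in the 250 bases before the start.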

Additional observations from a re-analysis of the deposited data

How the results depend on the processing

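The 534 changed genes (396 higher, 138 lower at P21) became 531 with RLE scaling, 529 with upper quartile scaling, 500 without a filter, 624 at a filter of 5 CPM, 550 after thinning and 483 in a fit of 9 libraries. The fit of 12 libraries with 1 batch label gave 229 lower genes without a replicate block and 212 with it. Only the 6 libraries of P21 and P3 gave 321 changed genes, 259 higher and 62 lower, and with a replicate block 156, 147 and 9. The replicate numbers did not pair the libraries, since same-numbered libraries had correlations of deviations of -0.02, -0.01 and -0.04. Limma voom gave 242 lower genes. DESeq2 gave 1149 changed genes, 702 higher and 447 lower. Library totals alone gave 232 higher and 453 lower. Leaving out 1 library gave between 241 and 648 changed, 190 and 385 higher and 51 and 263 lower genes. Of the 534, 189 (161 higher, 28 lower) kept their call without each library in turn, as did 77 of the 122 named genes that were called. Cx3cr1, which was not called, had a log2 change of -0.088 with library totals alone, and between -0.0023 (without P3 replicate 3) and 0.33 (without P3 replicate 1) when 1 library was left out. The cause of these differences was not tested, except that fits of fewer libraries have fewer degrees of freedom.

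For P56 against P10, a fit of all 15 libraries gave 802 changed, 460 higher and 342 lower genes, of which 52 were lower in both comparisons. DESeq2 gave 1322, 741 and 581, with 217 higher and 55 lower in both. Leaving out 1 library gave 51 to 731 changed, 38 to 461 higher, 13 to 270 lower, 27 to 175 higher in both and 5 to 38 lower in both.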

Other observations

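Families of NF-kB feedback, glycogen turnover and TMEM176 genes were assembled after the values were seen, so their counts are descriptions. Of 15 genes listed under NF-kB feedback, 7 were called higher at P21 and 0 lower (median log2 change 0.56). The list holds subunits of this factor as well as its inhibitors and other regulators, so its name does not describe every member. Nfkbia, the inhibitor IkB alpha, had 2829, 2439 and 2294 CPM at P21 and 1719, 1745 and 1676 CPM at P3 (log2 change 0.56 ± 0.10, adjusted p = 0.00695, edgeR). Nfkbib, the inhibitor IkB beta, had 115, 77.2 and 86.04 CPM at P21 and 44.5, 35.5 and 34.2 CPM at P3 (log2 change 1.28 ± 0.23, adjusted p = 0.00532). Both kept their call without any 1 library, and without P3 replicate 1 they were the only ones of the 7 still called. Tnfaip3, the ubiquitin-editing enzyme A20, had 748, 675 and 906 CPM at P21 and 272, 284 and 245 CPM at P3 (log2 change 1.54 ± 0.31, adjusted p = 0.0137), and its call was lost without each P3 library in turn. Nfkbie and Bcl3 lost their calls without each library in turn, Nfkbiz lost it in 5 of the 6 fits that left out a library, and Birc3 lost it without P3 replicate 1. The subunit genes Rela, Relb, Rel, Nfkb1 and Nfkb2 were not called, with log2 changes of 0.74, 0.48, 0.20, -0.19 and -0.16. Rela, the p65 subunit, had P21 libraries that all lay above the P3 libraries (adjusted p = 0.0919).

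Of 10 genes of glycogen turnover 3 were lower and 0 higher (median -0.37), with Pygl given above. Gyg, glycogenin, which primes glycogen synthesis, had 43.4, 18.2 and 33.1 CPM at P21 and 80.8, 99.95 and 83.7 CPM at P3 (log2 change -1.48 ± 0.30, adjusted p = 0.0144), and lost its call without P3 replicate 2. Pygm, the muscle-type phosphorylase, had 2.10, 5.43 and 6.46 CPM at P21 and 25.1, 30.2 and 21.3 CPM at P3 (log2 change -2.45 ± 0.56, adjusted p = 0.0259), and lost its call in 5 of the 6 fits that left out a library, all except the one without P21 replicate 3. Gys1, glycogen synthase, was low at both ages and not called (log2 change -0.26).

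The neighbouring membrane protein genes Tmem176a and Tmem176b were higher at P21 and kept their calls without any 1 library. Tmem176a had 835, 739 and 745 CPM at P21 and 164, 254 and 191 CPM at P3 (log2 change 1.93 ± 0.16, adjusted p = 1.07e-05). Tmem176b had 2157, 2047 and 1852 CPM at P21 and 616, 707 and 724 CPM at P3 (log2 change 1.56 ± 0.13, adjusted p = 9.18e-06). Of 9 genes of the TMEM176 and MS4A families 4 were called higher and 0 lower. The others called, Ms4a4c and Ms4a7, both lost their calls without P21 replicate 1 and without each P3 library, and Ms4a7 also without P21 replicate 2.

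Among the lists not described above, 4 of 20 adhesion genes, 4 of 17 genes of apoptotic cell uptake, 4 of 18 detoxification genes, 2 of 18 circadian clock genes and 1 of 21 receptor and TGF-beta genes were higher at P21, and 0 of each were lower. Of all tested genes, 2.70% were higher and 0.940% lower, so 0 lower members in lists of this size says little. The single receptor and TGF-beta member was Skil, a repressor of SMAD signalling, with 88.05, 118 and 108.8 CPM at P21 and 19.3, 25.9 and 16.4 CPM at P3 (log2 change 2.35 ± 0.28, adjusted p = 2.73e-04). The adhesion count was 1 without P3 replicate 2 and 2 without P21 replicate 1, P3 replicate 1 or P3 replicate 3. The apoptotic cell uptake count was 1 without P21 replicate 1 or P3 replicate 3 and 2 without P21 replicate 3, P3 replicate 1 or P3 replicate 2, and its median of 0.24 became -0.03 with library totals alone. The clock count was 1 without P3 replicate 2 or P3 replicate 3. Of 13 DNA methylation genes edgeR called 0 (3 at an unadjusted p under 0.05, beside 2440 of all 14683 tested genes).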
